A study of Mus musculus with 13 samples.

Results

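The cytosolic ribosomal protein genes of mouse brown adipose tissue were followed as a family. Members were genes of the deposited count table whose symbol begins with Rpl or Rps followed by a number and at most 1 letter of a, x or l, plus Rplp0, Rplp1, Rplp2 and Rpsa, with a mean of at least 5 CPM (a gene's counts relative to the library's total) over 13 libraries. Of 55357 genes, 83 had such a symbol and 78 passed the level, 46 of the large subunit and 32 of the small subunit. The members just inside the level were Rps10 at 6.21 CPM and Rpl39l at 7.43 CPM, and the genes just outside were Rpl3l at 2.36 CPM and Rpl24 at 1.07 CPM. The other 3 genes outside were Rpl32l, Rpl6l and Rpl10l, the last with no count.

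The cytosolic ribosome is built from ribosomal RNAs and a single copy of nearly every ribosomal protein, so the proteins are made in matched amounts. Their mRNAs are short, abundant and stable, and many start with a terminal oligopyrimidine (TOP) tract, a C followed by a run of C and T. The tract lets mTOR signalling, through the repressor Larp1, switch their translation without much change in mRNA level. Brown adipose tissue burns fuel to make heat, and cold activates it through sympathetic nerves.

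The control mice carried floxed alleles of both genes (Stim1/2_fl/fl). The knockout mice (Stim1/2_Adp-Cre, KO below) lost Stim1 and Stim2, the calcium sensors of the endoplasmic reticulum, where the adiponectin promoter drove Cre, which is in adipocytes, while other cells of the tissue kept both genes. Housing was at room temperature (RT) or, for 6 h, at 4 °C (cold). Control mice gave 2 libraries at RT and 4 in cold, KO mice gave 3 at RT and 4 in cold, and all share 1 batch label. Age is not labelled, and neither is whether replicates came from separate animals, so the p-values here cover only library-to-library spread, which may be technical. In bulk tissue, fewer cells of a type and less RNA per cell cannot be told apart.

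Libraries held 1570684 to 2016178 counts (median 1800685), and single members held from 3 counts (Rps10) to 1824 counts (Rplp2) in a library. At either temperature every KO library had less Stim1 and Stim2 than any control library, although a 3′ tag need not lie in the deleted part. Markers of brown adipocytes summed to 21840.7 to 24550.7 CPM in cold and 17773.2 to 19545.2 CPM at RT, with none of 9 at 0. Of these 9 markers, 3 rose and 1 fell in cold in each genotype. Ucp1, one of them, weighed heavily in the sum. On the scale of the tests below it went from 3187 and 3856 CPM at RT to 7504 to 9365 CPM in cold in control. In KO it went from 2436 to 3601 CPM at RT to 6125 to 6905 CPM in cold. Markers of skeletal muscle summed to 0.546 to 185 CPM in cold. At RT they summed to 13.2 CPM in 1 control library and 1651 CPM in the other, and to 49.8 to 999.8 CPM in KO. The 2 control RT libraries thus differed widely in these markers. In cold 4 of 6 fell in control and 1 in KO. Of 5 fibroblast markers none was called in cold in control and 4 fell in KO, with sums of 391 to 1028 CPM in cold and 577 to 1114 CPM at RT. The part of these cell types in the results below was not tested.

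The annotated transcription starts are shown for the 8 of 11 members called in cold in either genotype that had an entry in the RefSeq table, because the TOP tract sits there. Rps4l, Rpl3 and Rpl36 have no entry. A tract was taken as a C within 5 bases of the start followed by at least 4 pyrimidines, read on the strand of the gene only. RefSeq entries (GRCm38.p6, a build older than that of the counts) existed for 57 of 78 members, with 68 starts. Each line gives 10 bases before the start and 20 from it, 5′ to 3′ on the gene's strand, with the tract in capitals from the qualifying C nearest to the start; pyrimidines may run on upstream of it, as in Rpl34 and Rps9. Rpl34 has 2 annotated starts, of which 1 with a tract is shown.
Rps6 (chr4:86857348-86857377, minus strand): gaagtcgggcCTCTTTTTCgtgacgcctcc
Rps15a (chr7:118116128-118116157, minus strand): tttctgccatCTTCCCTCgccggtgagtga
Rps9 (chr7:3704031-3704060, plus strand): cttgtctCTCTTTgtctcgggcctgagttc
Rpl34 (chr3:130730318-130730347, minus strand): cttttcctCTTCCggggacggtgctcagag
Rps28 (chr17:33824543-33824572, minus strand): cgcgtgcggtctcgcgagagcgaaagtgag
Rpl37 (chr15:5116603-5116632, plus strand): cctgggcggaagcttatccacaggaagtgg
Rpl27 (chr11:101442235-101442264, plus strand): ctgttcctgtctgctgctcgtgctgctaat
Rpl9 (chr5:65391412-65391441, minus strand): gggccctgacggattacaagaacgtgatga
The first 4 of these windows held a tract and the last 4 held none by this reading, which says only that the letters are not in the annotated window. Of all member starts, 30 of 68 (44.1%) held one, against 18.3% of 32851 starts of all genes. The motif CCGGAA, read on both strands over 300 bases around the start, was in 50% of member starts and in 14.9% of all starts. Among members with an entry, the median cold response in control was 0.22 for the 28 with a tract and 0.25 for the 29 without, on the log2 fold change scale of the fit described below. In KO these medians were 0.13 and 0.18. Both groups rest on the annotated windows only, so whether the tract itself bears on the response was not tested.

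The family took 1.77% to 2.12% of all counts over the libraries, with both ends in control cold. In control it held 1.82% and 2.07% of counts at RT and 1.77%, 2.12%, 1.92% and 2.03% in cold. In KO it held 1.97%, 1.97% and 1.97% at RT and 1.998%, 2.09%, 2.06% and 1.97% in cold. All 4 groups overlapped, with means of 1.94 ± 0.172% (SD, n = 2), 1.96 ± 0.152% (n = 4), 1.97 ± 0.00247% (n = 3) and 2.03 ± 0.0560% (n = 4) in that order. For the tests, TMM scaling (edgeR's trimmed mean of M values) was used, which sets the bulk of genes level. Its factors were 1.04 to 1.091 at RT, 0.981 to 1.004 in KO cold and 0.889 to 0.970 in control cold. On that scale the mean log2 CPM of the 78 members was 7.32 and 7.52 in control RT, 7.46, 7.81, 7.60 and 7.69 in control cold, 7.44, 7.42 and 7.49 in KO RT, and 7.595, 7.61, 7.63 and 7.53 in KO cold. KO cold lay above KO RT in every library, while control cold 1 lay below control RT 2. All levels and fold changes below are on the TMM scale, in CPM and log2 respectively.

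**Figure D1:**
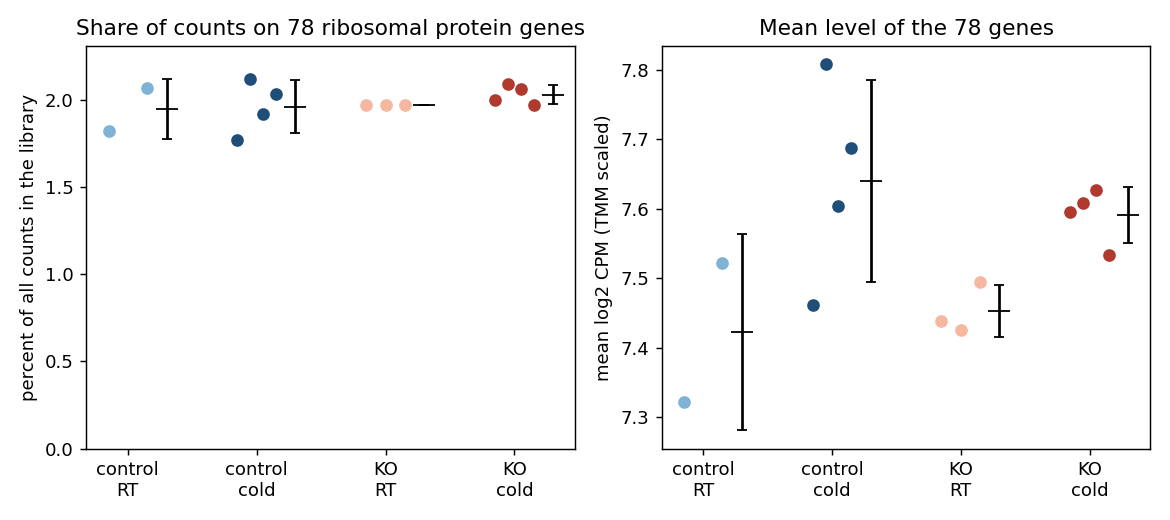
Left, percent of each library's counts on the 78 ribosomal protein genes; right, mean log2 CPM of the same genes after TMM scaling (axis not from 0). Points are libraries and bars are the mean ± SD of a group; the shares of all groups overlap near 2%, whereas on the TMM scale the 4 KO cold libraries (7.53 to 7.63) lie above the 3 KO RT libraries (7.42 to 7.49).

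In control, members also lay to one side of their group mean in some libraries. In control cold 1, 67 of 78 members lay below their group mean and the median deviation was -0.19 on the log2 scale. In control cold 2 only 9 lay below, with a median deviation of 0.16. At RT the same held for control RT 1, with 66 members below, and control RT 2, with 12. The other control cold libraries had 50 and 23 below. In the KO libraries 21 to 52 lay below, with median deviations of -0.054 to 0.053. The median deviation of all tested genes was at most 0.022 in size in any library. The median coefficient of variation was 14.6% for members and 20.98% for all tested genes in control cold, 7.52% and 16.7% in KO cold, 12.4% and 15.5% in control RT, and 6.00% and 14.8% in KO RT.

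Levels spread widely over the family. The kit reads 1 tag near the 3′ end of a transcript, so CPM needs no length correction, although tags that fit several copies of a gene can be lost. Rplp2, of the acidic stalk that recruits elongation factors, had the highest mean at 929.9 CPM, followed by Rpl23 at 806 CPM and Rps29 at 799 CPM. Rps10, Rpl39l and Rpl13a (15.7 CPM) had the lowest means. The other stalk genes were at 204 to 292 CPM (Rplp0) and 431 to 624.6 CPM (Rplp1) over all libraries, with overlapping groups for Rplp0 and Rplp2, and with all KO cold libraries above all KO RT libraries for Rplp1. Rps27a, which encodes ubiquitin fused to a small subunit protein, ran from 166 CPM in control cold 1 to 484 CPM in control cold 2, so 1 group held both its extremes. Rpl5 and Rpl11, which bind Mdm2 together with 5S rRNA, ran from 98.4 to 182 CPM and from 316 to 425 CPM, and their groups overlapped. Rpsa, which doubles as a laminin receptor, ran from 134 to 234 CPM with overlapping groups. Rps19 is the gene most often mutated in Diamond-Blackfan anaemia. It ran from 232 to 254.5 CPM in KO cold and from 216 to 230.4 CPM in KO RT, which did not overlap. In control it ran from 206 to 282 CPM. Neither Rplp1 nor Rps19 passed the edgeR test described below for cold in KO (adjusted p = 0.288 and 0.559). Of all tested genes 15.8% lay higher without overlap in that comparison.

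Many ribosomal proteins have near-identical processed pseudogenes that can take or lose their tags. The table held 320 pseudogenes named after a member (symbol followed by -ps), 196 of them with counts, for 63 of the 78 members. Of the counts on a member and its pseudogenes together, pseudogenes held 89.5% for Rps10 and 56.2% for Rpl10, over 10% for 18 members in all and under 1% for 34, with a median of 1.52%. The low level of Rps10 is therefore uncertain, as are the levels of Rpl10, Rpl10a (45.5%), Rpl27a (44.1%), Rps6 (42.6%), Rpl14 (32.7%), Rpl13a (31.5%) and Rpl36 (31.4%). Any copies under other names, or tags lost before counting, are not in these percentages, so a low one does not clear a member. None of the 44 named pseudogenes that were tested was called in any comparison.

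The comparison of cold with RT in control mice asks how the tissue answers 6 h of cold. A total of 8 of 78 members (10.3%) rose and none fell, against 25.2% of all 11073 tested genes called in either direction and 12.7% called higher. A gene was called where q, the p of edgeR's quasi-likelihood test after Benjamini-Hochberg adjustment across the 11073 genes, was under 0.05. The members leaned to one side: 70 of 78 fold changes were positive with a median of 0.23, against -0.02 for all tested genes. With libraries scaled by their totals this median was 0.0099 (43 of 78 positive) beside -0.23 for all genes, and only Rps4l was called. The lean in cold was thus seen relative to other genes and not as a share of all counts. The level of the family as a whole was not tested, and members moved together within control libraries. The responses were small: 4 of 78 members (5.13%) changed by 0.5 or more in either direction, against 41.6% of all genes. In 15 members every control cold library lay above both control RT libraries and in none below, against 40.4% of all genes without overlap, 19.8% above and 20.6% below.

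Rps4l (chromosome 6), an autosomal paralog of the X-linked small subunit gene Rps4x, had the largest response. It was at 32.2 and 39.8 CPM in control RT and at 82.9, 67.4, 63.8 and 81.2 CPM in control cold. Every cold library lay well above both RT libraries, and the log2 fold change was 1.04 ± 0.17 (SE, q = 0.000379 with edgeR). The call held in all 21 alternative analyses, with fold changes of 0.83 to 1.21. Rps4x itself had 97.0 and 112 CPM at RT in control against 79.5, 119, 96.0 and 121 CPM in cold, which overlapped (-0.01 ± 0.16, q = 0.971). The sign of the latter turned without control cold 1 (0.10), control cold 3 (0.03) or control RT 2 (0.11). Rps4l has 1 named pseudogene, which held no count.

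Rps6 (chromosome 4), the substrate of the S6 kinases, was at 30.8 and 31.9 CPM in control RT and at 50.1, 52.5, 45.2 and 44.5 CPM in control cold. The groups did not overlap (0.62 ± 0.19, q = 0.0241 with edgeR), and with its pseudogene counts added the change was 0.61 (q = 0.00358). Rpl34 (chromosome 3), of the large subunit, was at 244 and 267 CPM in control RT and at 287, 455, 351 and 394 CPM in control cold (0.54 ± 0.15, q = 0.0143). Control cold 1 was the lowest cold library of Rpl34 and still above both RT libraries. Rpl37 (chromosome 15), also of the large subunit, was at 355 and 468 CPM in control RT and at 489.6, 624.6, 593 and 532 CPM in control cold (0.45 ± 0.13, q = 0.0225). Rpl3 (chromosome 15), which reaches towards the peptidyl transferase centre, was at 152 and 193 CPM in control RT and at 209, 256, 207.5 and 272 CPM in control cold (0.45 ± 0.14, q = 0.0280). In both, control RT 2 came close to the lowest cold library. Rpl27 (chromosome 11) was at 209 and 252 CPM in control RT and at 267, 308, 308.5 and 332.5 CPM in control cold (0.40 ± 0.13, q = 0.0306). The remaining calls were Rpl9 (0.42 ± 0.14, q = 0.0341) and Rps28 (0.42 ± 0.14, q = 0.0361), named to complete the count.

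These calls leaned on single libraries. Without control RT 1, Rps4l alone was called and the family median was 0.10. Without control RT 2, 12 members were called, Rps6 and Rps28 not among them, and the median was 0.36. Without control cold 1, 14 were called, and without control cold 2, 5, with Rpl3, Rpl9 and Rps28 lost. These 3 and Rpl27 were also lost without control cold 4, and Rps28 without KO RT 1. With only the control libraries in the fit, Rps4l alone was called. DESeq2 on all libraries called the same 8 members.

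**Figure D2:**
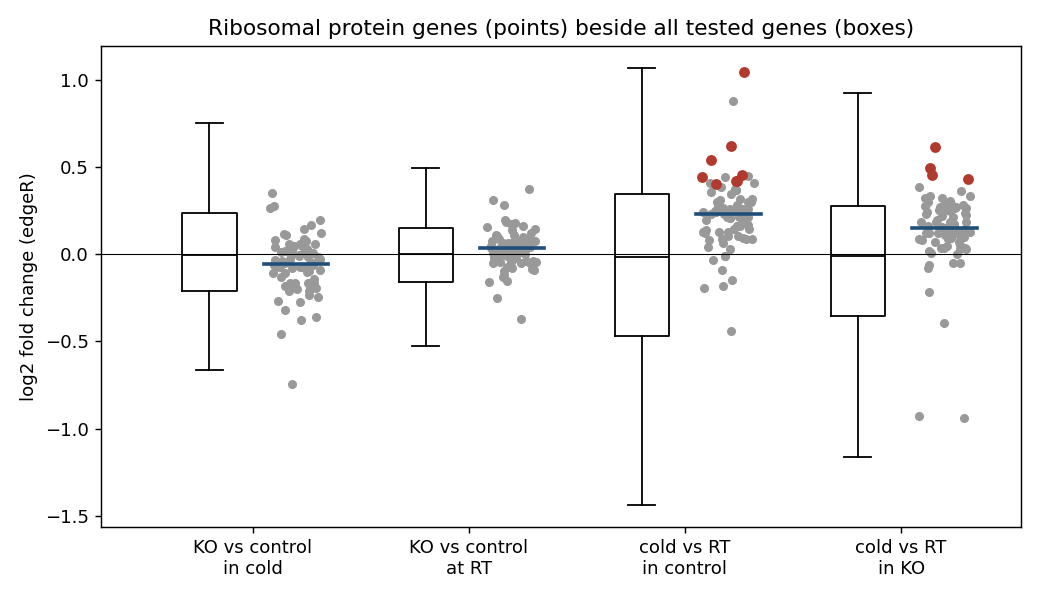
Log2 fold changes of the 78 ribosomal protein genes (points, red where called, blue line at their median) in 4 comparisons, each beside a box of all 11073 tested genes (quartiles, median, whiskers from the 5th to the 95th percentile). The members' medians are 0.23 and 0.15 in the cold comparisons and near 0 in the genotype comparisons.

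In KO mice cold raised 4 of 78 members (5.13%) and lowered none, against 18.9% of all tested genes called, 9.43% higher and 9.45% lower. The median was 0.15, with 70 of 78 fold changes positive, against -0.01 for all tested genes; scaled by library totals it was 0.042 (49 positive) beside -0.12 for all genes, with 1 member called higher (Rps9) and 1 lower (Rps24, -0.50, q = 0.0458). In 29 members every KO cold library lay above every KO RT library, against 15.8% of all genes. A fold change of 0.5 or more in either direction was found in 3 members (3.85%), against 31.7% of all genes. They were Rps9 (0.62), Rpl39l (-0.94 ± 0.39, q = 0.105 with edgeR) and Rps10 (-0.93 ± 0.42, q = 0.136). The largest changes were therefore falls, of members with few counts, and did not pass.

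Rps9 (chromosome 7), a small subunit protein near the entry of the mRNA channel, had the smallest p. It was at 203, 220.3 and 152 CPM in KO RT and at 322.5, 287.5, 305 and 260.2 CPM in KO cold. The groups were far apart (0.62 ± 0.13, q = 0.00371 with edgeR), and the call held in all 21 alternative analyses. In control it was at 226 and 270.0 CPM at RT and at 245, 241, 256 and 227 CPM in cold, all of the cold values lying between the RT values (-0.03 ± 0.15, q = 0.895). That sign turned without control RT 2 (0.11).

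Rps15a (chromosome 7) was at 165, 207 and 179 CPM in KO RT and at 241, 258, 249.8 and 241.5 CPM in KO cold (0.43 ± 0.13, q = 0.0291 with edgeR). Its groups did not overlap, and in control it was at 177 and 226 CPM at RT and 242.5, 281, 223 and 304 CPM in cold (0.38 ± 0.15, q = 0.0694). Rps6 was at 41.0, 33.3 and 24.7 CPM in KO RT and at 48.3, 42.3, 47.8 and 48.0 CPM in KO cold (0.49 ± 0.16, q = 0.0428). With all libraries in edgeR it was the one member called in both genotypes, but in KO it was not called by DESeq2 (q = 0.0705), without a filter on low counts (q = 0.0732), with only the KO libraries (q = 0.0554), with the replicate block (q = 0.0614) or with library totals (q = 0.127). In fits of only the groups compared, Rps4l was the member called in both. Rpl36 (chromosome 17), of the large subunit, was at 95.2, 103.3 and 106 CPM in KO RT and at 149, 152, 128 and 127.5 CPM in KO cold (0.45 ± 0.15, q = 0.0498). In control Rpl36 was at 101 and 142 CPM at RT and at 115, 125, 115 and 81.2 CPM in cold (-0.15 ± 0.17, q = 0.577), with the sign turned without control RT 2 (0.13). Rps4l was at 42.0, 45.3 and 43.0 CPM in KO RT and at 52.0, 54.3, 64.1 and 57.0 CPM in KO cold, which did not overlap (0.39 ± 0.14, q = 0.0692).

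Rps9 alone was called without KO cold 3 or without KO RT 3, and 2 members were called without KO cold 1, 2 or 4 or without KO RT 1 or 2. Rps15a was lost without KO cold 2 or 3 or KO RT 1 or 3, and Rps6 without KO cold 1, 3 or 4 or KO RT 2 or 3. Rpl36 was lost without any 1 of the 7 KO libraries and without control cold 1 or 3. Without control cold 4, 6 were called. With only the 7 KO libraries in the fit 13 members were called, 12 higher and 1 lower. The lower one was Rps24, named after its values were seen, at 292, 331 and 341 CPM in KO RT and 220, 235, 223 and 301 CPM in KO cold (-0.39 ± 0.17, q = 0.124 with all libraries, q = 0.0265 with the KO libraries only).

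**Figure D3:**
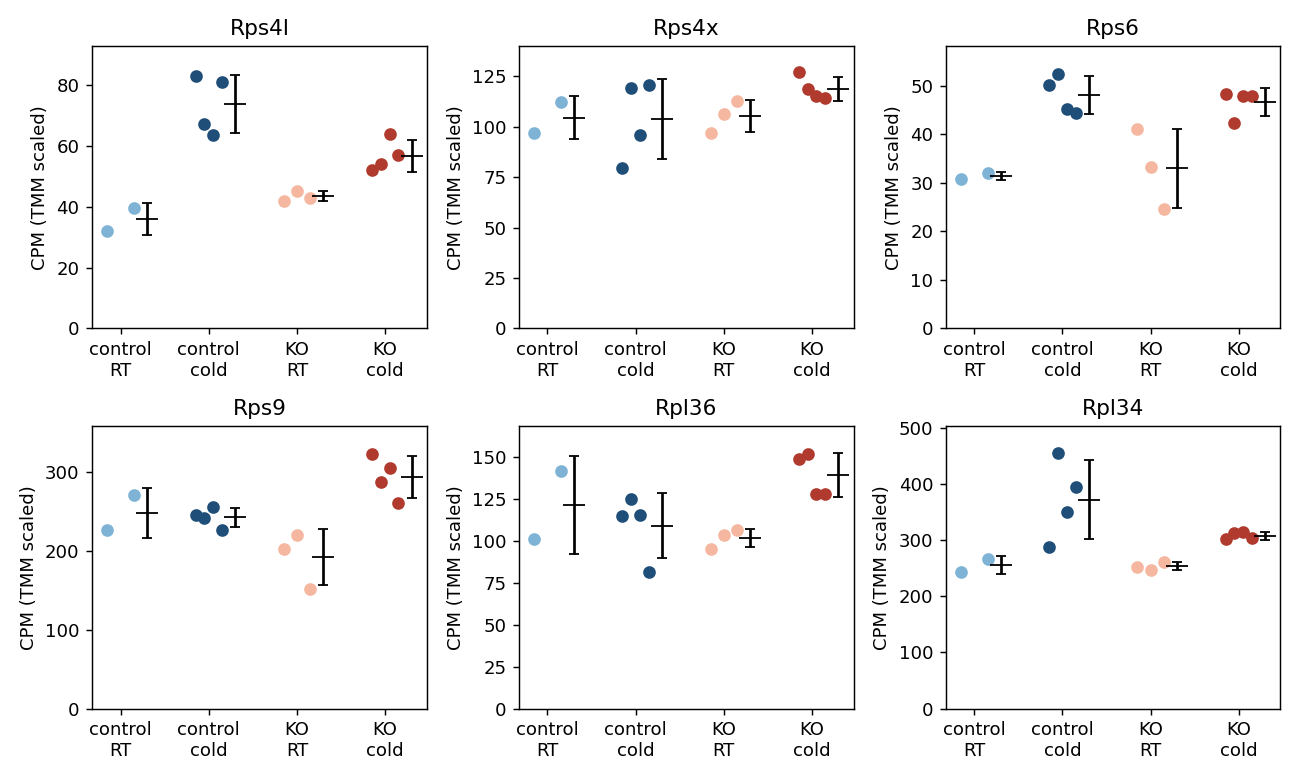
TMM-scaled CPM of 6 members in every library, with the mean ± SD of each group. Rps4l and Rps6 rise from RT to cold in control, Rps9 and Rpl36 differ between RT and cold in KO while their control groups overlap, and Rps4x overlaps in control.

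The responses of both genotypes were then set against each other. A total of 65 of 78 members (83.3%) had a positive fold change in both, against 4114 of 11073 tested genes (37.2%); the comparisons share no library, but scaling touches both, as given above. The difference of the cold responses (KO minus control) was called for none of the 78 members with edgeR or DESeq2, and for 0.0181% of all genes. At an unadjusted p under 0.05 there were 3 members. Rps9 was at 0.65 ± 0.20 (q = 0.359), Rps4l at -0.65 ± 0.22 (q = 0.425) and Rpl36 at 0.60 ± 0.23 (q = 0.505). So Rps9 and Rpl36 passed in KO, and Rps4l in control, without a difference between genotypes that passed the test. The median difference was -0.08 and turned to 0.026 with library totals.

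**Figure D4:**
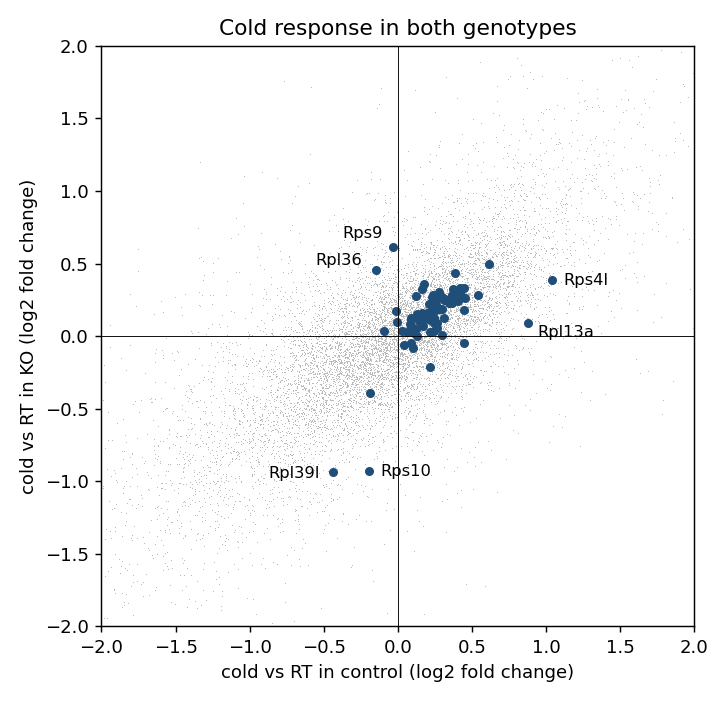
Log2 fold change of cold against RT in control (x) and in KO (y) for the 78 members (blue) and all tested genes (grey dots; values beyond 2 in size are not shown). 65 members lie right of and above 0, and the named points lie away from the group: Rps4l furthest right, Rps9 highest, Rpl39l and Rps10 (both under 15 CPM in each library) lowest.

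Genotypes were next compared in cold, that is under demand for heat. No member was called with edgeR or with DESeq2, against 5.93% of all tested genes (2.44% higher and 3.49% lower in KO). At an unadjusted p under 0.05 edgeR gave 6 members, 2 higher and 4 lower. Fold changes ran from -0.75 to 0.35 with a median of -0.05 (26 positive), which turned to 0.045 (53 positive) with library totals. Rps4l had the smallest p (-0.38 ± 0.13, q = 0.0980), and of the cold values given above KO cold 3 (64.1 CPM) overlapped control cold 3 (63.8 CPM). Rpl13a (chromosome 7), often used as a reference gene in qPCR, had 26.5, 27.8, 22.9 and 13.4 CPM in control cold against 15.9, 8.35, 13.5 and 16.9 CPM in KO cold. It had 16 to 46 counts per library and did not pass (-0.75 ± 0.27, q = 0.113), although it was called with its pseudogene added (-0.71, q = 0.0411) or without control cold 4 (-0.92, q = 0.0445). Its RT levels were 14.7 and 9.64 CPM (control) and 16.2, 9.18 and 12.6 CPM (KO), so 3 control cold libraries stood above all others. Rpl36 was next (0.35 ± 0.14, q = 0.173), and Rpl36 and Rps9 (0.28 ± 0.12, q = 0.202) were the 2 members with every KO library above every control library, against 6.28% of all genes; in no member was every KO library below (6.53% of all genes).

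At RT no member and no other gene (0% of 11073) was called between genotypes with edgeR, and no member with DESeq2; 1 member had an unadjusted p under 0.05. The median was 0.03, the range -0.37 to 0.37, and the median turned to -0.091 without control RT 1. The smallest p values were those of Rps9 (-0.37 ± 0.16), Rpl3 (0.31 ± 0.15) and Rps4l (0.28 ± 0.18), each with q = 1. In 6 members all KO libraries were above both control libraries and in 1 (Rps9) below, against 8.68% and 7.96% of all genes.

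Some members are paralogs with restricted or duplicated copies. Rpl39l, a paralog of Rpl39 best known from testis, was at 11.5 and 7.23 CPM in control RT against 8.06, 9.89, 5.58 and 4.24 CPM in control cold. In KO it had 5.57, 9.18 and 14.7 CPM at RT and 4.28, 3.13, 7.31 and 5.64 CPM in cold, and all groups overlapped. Rpl39 itself ran from 90.9 to 153 CPM. Rps27l, a p53-responsive paralog of Rps27, ran from 147 to 255 CPM with overlapping groups. Rps27 ran from 220.0 to 314.5 CPM in control cold, above its 202 and 208 CPM in control RT, but was not called (0.37 ± 0.13, q = 0.0558 with edgeR). Rps4l was at a mean of 73.8 ± 9.65 CPM (SD, n = 4) beside 104 ± 19.8 CPM for Rps4x in control cold.

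Of 7 genes of ribosomal proteins or their paralogs outside the naming rule, 6 were tested, and 3 rose in cold in control and 1 in KO. Of all tested genes 12.7% rose in control and 9.43% in KO. Rack1, the scaffold on the small subunit head, rose in control (0.48 ± 0.14, q = 0.0187), but with q = 0.201 without control RT 1. Rpl22l1, a paralog of Rpl22, rose in control (0.78 ± 0.26, q = 0.0360), with q from 0.0546 to 0.140 without control cold 1, 2 or 4 or either control RT library. Rpl7l1, a paralog of Rpl7, rose in control (0.59 ± 0.20, q = 0.0423, but 0.0508 to 0.411 without 1 of control cold 2 to 4, control RT 1, KO cold 1 to 3 or KO RT 3) and in KO (0.69 ± 0.18, q = 0.0140, 0.0906 without KO RT 1). With library totals none was called in control.

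Genes that build ribosomes were then counted from a list that, like the other lists, was chosen with earlier results of these data known. The counts are therefore a description. Of 38 tested biogenesis genes 19 rose and 1 fell in cold in control (median 0.57), and 6 rose in KO (median 0.32). Of all tested genes 12.7% rose and 12.6% fell in control, and 9.43% and 9.45% in KO. With library totals the list counts were 9 and 1 in control and 2 higher and 1 lower in KO. Polr1d, a subunit shared by RNA polymerases I and III, was at 119 and 126 CPM in control RT and at 224, 233.5, 242 and 212 CPM in control cold (0.90 ± 0.14, q = 0.000312). Its KO levels were 115.5, 131 and 126 CPM at RT and 146, 160 and 174 CPM in 3 cold libraries with 126 CPM in the fourth. In cold Polr1d was lower in every KO library than in every control library (-0.59 ± 0.11, q = 0.00473). Ltv1, needed for export of the small subunit, rose in control (1.24 ± 0.26, q = 0.00265, 0.0586 without control RT 1) and in KO (0.94 ± 0.23, q = 0.00797). Nop14, of small subunit processing, rose in control (0.90 ± 0.19, q = 0.00310) and in KO (0.57 ± 0.17, q = 0.0295, up to 0.110 without 1 of KO cold 3 or KO RT 1, 2 or 3).

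Between genotypes in cold 4 of the 38 biogenesis genes fell in KO and none rose (median -0.32, 31 negative), with 3 lower under library totals. Of all tested genes 3.49% were lower and 2.44% higher. Besides Polr1d the 4 biogenesis genes included Polr1c (-0.57 ± 0.13, q = 0.0172, 0.0559 without KO cold 2, 0.052 without KO cold 4), also shared by polymerases I and III. Rrp12, of pre-ribosome export, had 19.6, 14.2, 11.8 and 28.2 CPM in control cold against 7.34, 8.35, 11.8 and 5.64 CPM in KO cold (-1.13 ± 0.29, q = 0.0279). Its q was 0.0621 to 0.0858 when control cold 1 or 4, or KO cold 1, 2 or 4, was left out. Against these, none of the 78 ribosomal proteins was called in the same comparison. No biogenesis gene was called at RT.

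**Figure D5:**
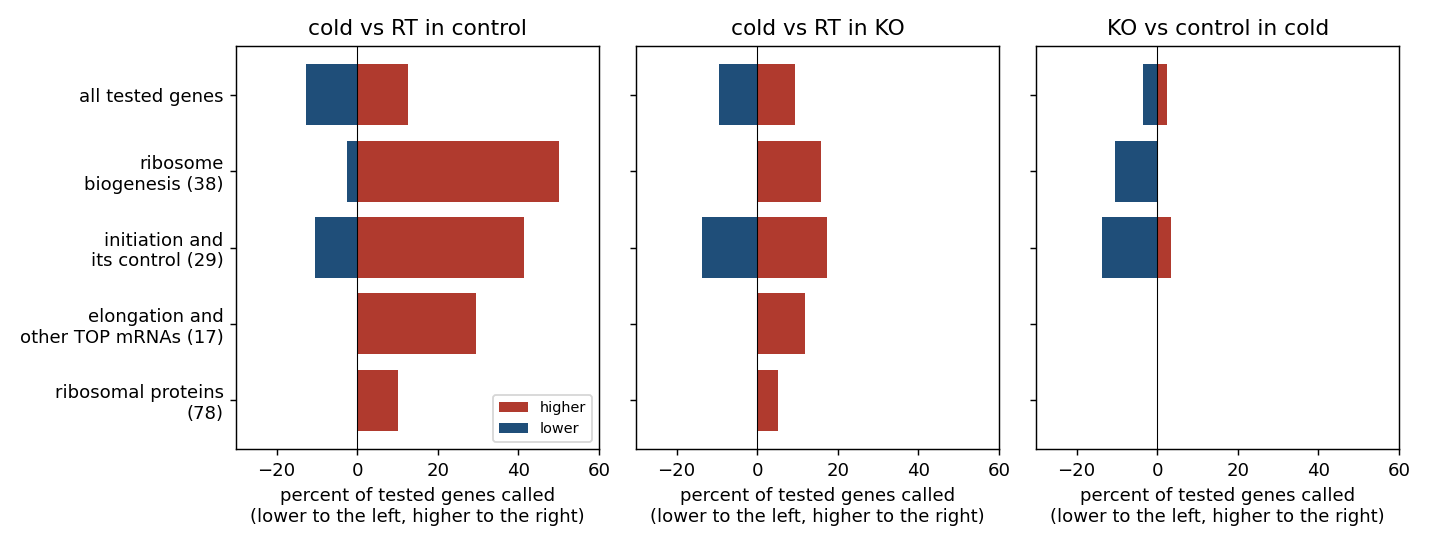
Percent of tested genes called lower (blue, left) and higher (red, right) in 3 comparisons, for all tested genes, 3 gene lists and the 78 ribosomal proteins; the number tested in each list is in parentheses. In control, 19 of 38 biogenesis genes are higher in cold against 8 of 78 ribosomal proteins, on the TMM scale. The lists were chosen with earlier results of these data known.

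Elongation factors and other genes listed as TOP mRNAs held 5 of 17 higher and none lower in control (median 0.32). Their own starts were not read for a tract here. In KO 2 of 17 were higher (median 0.13). Of all tested genes 12.7% were higher and 12.6% lower in control, and 9.43% and 9.45% in KO. The higher count of the list in KO was thus near the share of all genes. With library totals 1 of the 17 was higher and 2 were lower in control, while in KO the counts stayed at 2 higher and none lower. Npm1, a nucleolar chaperone, was at 179 and 201 CPM in control RT and at 351, 335, 238 and 387 CPM in control cold (0.79 ± 0.16, q = 0.00221), and rose in KO as well (0.51 ± 0.14, q = 0.0159, 0.0836 without KO RT 1). Eef1g, of the elongation factor 1 complex, rose in control (0.58 ± 0.14, q = 0.00557, 0.102 without control RT 1), as did Naca, which binds nascent chains (0.46 ± 0.13, q = 0.0149, 0.0951 without control RT 1 and 0.0692 without control RT 2). In KO the other call was Eif3a (0.74 ± 0.15, q = 0.00275), a subunit of initiation factor 3. None of the 17 was called between genotypes, against 5.93% of all tested genes in cold and 0% at RT.

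Of 29 genes of initiation and its control 12 rose and 3 fell in control, and 5 rose and 4 fell in KO. Of all tested genes 12.7% rose and 12.6% fell in control, and 9.43% and 9.45% in KO. With library totals 5 of the 29 rose and 5 fell in control, and 5 rose and 6 fell in KO. Eif1, which guards start codon choice, rose from 336 and 381.5 CPM to 637, 643, 704 and 726 CPM in control (0.92 ± 0.12, q = 6.92e-05) and by 0.85 ± 0.10 in KO (q = 4.48e-05). Pdcd4, an inhibitor of the helicase eIF4A, fell by 1.58 ± 0.24 in control (q = 0.000228) and by 1.44 ± 0.21 in KO (q = 0.000258). Mknk2, a kinase of eIF4E, fell by 1.16 ± 0.16 (q = 8.09e-05) and by 1.05 ± 0.14 (q = 8.28e-05). In cold 1 of the 29 was higher and 4 were lower in KO than in control, and 1 and 1 with library totals. Of all tested genes 2.44% were higher and 3.49% lower. Rheb, which activates mTORC1, had 212.5, 212, 167 and 245 CPM in control cold against 159, 144.5, 130.5 and 126 CPM in KO cold (-0.58 ± 0.12, q = 0.00992). Larp1, the TOP-binding repressor (-0.46 ± 0.12, q = 0.0253), and Eif4e, the cap-binding factor (-0.43 ± 0.11, q = 0.0298), were also lower, and both lost the call without some libraries: Larp1 when control cold 1, control cold 4, KO cold 1 or KO cold 4 was left out (q up to 0.0804), and Eif4e for control cold 2 and 3 and for KO cold 1, 2 and 4 (q up to 0.0945).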

How the data were processed

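Total RNA of brown adipose tissue was made into QuantSeq libraries, which read a tag at the 3′ end of mRNAs, per the labels' protocols. As deposited, the table holds whole-number counts for each Ensembl gene, not normalized. Tools listed in the submitters' processing notes, without their roles, are STAR 2.7.10b, HTSeq 0.12.3, UMI-tools 1.1.2 and Trim Galore 0.6.7, with limma and edgeR, on GRCm39. How molecular identifiers, strand and tags that fit several genes were handled is not given in the sources used here, and this bears on members with pseudogenes and on overlapping genes. Of 55632 lines, 275 repeated an identifier and were dropped.

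Counts were fitted in R 4.3.3 with edgeR 4.0.16 (filterByExpr, minimum count 10, TMM): 13 libraries, 4 group coefficients, 5 contrasts, two-sided, 11073 genes, biological coefficient of variation 16.1%. The pipeline was tested on simulated data first. Alternatives were other scalings, DESeq2 1.42.0, filters, fewer samples, a replicate block and added pseudogene counts. Members and gene lists were chosen with earlier results of these data known. Named were up to 6 called members per contrast and direction by p (or 3 where none was called), the highest and lowest 3 by level, members of set roles, those around the level rule, and up to 3 called genes of each list; Rpl9, Rps28, Rps24, Rps4x and the other contrasts of named genes were added after values were seen. Replicates of a group always differed by more than sampling noise (lowest chi-square over its degrees of freedom 2.03).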

Additional observations from a re-analysis of the deposited data

Results flagged for a closer look

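In 4 of 58 groups of 4 libraries that were checked, all of them in KO cold, 1 library stood apart from the other 3 by Dixon's criterion, which chance alone meets in about 1 group in 20. Rps27a was at 284 CPM in KO cold 4 and at 361 to 376 CPM in the others. Rps29 was at 768 CPM in KO cold 4 and at 849 to 860.5 CPM in the others. Rps28 was at 225 CPM in KO cold 1 and at 254.5 to 260.3 CPM in the others. Rps6 was at 42.3 CPM in KO cold 2 and at 47.8 to 48.3 CPM in the others.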

How the results depend on the processing

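The counts of called members, the family medians and the shares of counts had 233 alternative values. Of these, 198 kept their direction and size, 30 moved and 5 reversed. A median was kept if its sign stayed and it moved by less than 0.10. That is more than its own size in both genotype comparisons and in the difference. Shares were kept within the SD of their group, which leaving out 1 library cannot exceed. Counts of 0 that stayed at 0 were kept as well, so the 198 does not measure stability. Of 1383 alternative values of single genes, 1234 kept their direction and side of the threshold. With library totals the family median was 0.0099 for cold in control, 0.042 for cold in KO, 0.026 for the difference of cold responses and 0.045 for KO against control in cold, and 1 member (higher) and 2 members (1 higher, 1 lower) were called for cold in control and KO. With only the groups compared, 1 and 13 were called, and with pseudogene counts added 1 (Rpl13a) was called between genotypes in cold. The share of counts was 2.23% (control cold), 2.17% (control RT), 2.28% (KO cold) and 2.19% (KO RT) without mitochondrial genes in the total, 2.17% (KO cold) and 2.11% (KO RT) with pseudogenes, and 1.94% and 1.87% without Rplp2. Without any filter Rps4x was at 0.012 for cold in control. The cause of these shifts was not tested.

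Leaving out 1 library at a time, the median ran from 0.10 to 0.36 for cold in control, from 0.13 to 0.19 for cold in KO, from -0.20 to 0.025 for the difference, from -0.091 to 0.12 for KO against control at RT and from -0.12 to -0.002 in cold. Called members ran from 1 to 14, from 1 to 6, 0, 0 and from 0 to 1 in that order. Cold in control ran from -0.38 to 0.13 for Rpl36, from -0.37 to 0.023 for Rps24, from -0.12 to 0.11 for Rps4x and from -0.16 to 0.11 for Rps9, and KO against control at RT from -0.49 to 0.017 for Rpl36. The RT median was -0.005 without KO RT 3.

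With the replicate number as a block, 5 members were called for cold in control and 4 for cold in KO (3 higher, 1 lower), none elsewhere, and Rps9 was at 0.056 for cold in control. Deviations of same-numbered libraries correlated at -0.163 to 0.333, over 0.1 in 2 of 11 pairs. These deviations were centred within small groups, so the 2 control RT libraries mirror each other. Whether the numbers pair the libraries can therefore not be told from them. Depth limits Rps10, Rpl39l and Rpl13a most.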
